A study of Homo sapiens with 12 samples.

Results

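Of the 1477 clusters of RNA crosslinked to the translation initiation factor eIF3, counted separately for each subunit, 247 lay outside the exons of mRNA, in introns or in noncoding RNA. They were taken as every line of the authors' cluster table whose annotation is not 5′ UTR, start codon, CDS exon or 3′ UTR. A cluster here is a short stretch of the genome (hg19) covered by overlapping reads. The 247 clusters comprised 125 in introns, 64 in long intergenic noncoding RNA (lincRNA), 28 in mitochondrial RNA, 11 under a piwi-interacting RNA name, 8 in miscellaneous RNA, 7 in ribosomal RNA and 4 in microRNA. These classes are the authors' annotation, and lincRNA includes the small nuclear RNAs (snRNAs) RNU11 and RNU12. The 247 clusters fell at 88 of the 558 loci of the table, under 76 gene names. A locus joins same-strand clusters of any subunit that overlap by at least 1 nt, directly or through another cluster.

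All material came from 293T, a line of transformed kidney cells of human embryonic origin, which were given 100 µM 4-thiouridine over 14 h and then irradiated with 0.15 J per square cm of ultraviolet light. Every library used an antibody against the eIF3b subunit, so the 4 groups, eIF3a, eIF3b, eIF3d and eIF3g, differ in the subunit whose RNA was sequenced and share cells, label and antibody. Each group had 3 replicate libraries, and no control library was among the 12. The table pools the replicates into 1 value for each cluster of a subunit. Spread between libraries is therefore unknown for every value below, and no difference between subunits could be tested.

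Eukaryotic eIF3 is a complex of many subunits that helps load mRNA onto the small ribosomal subunit, and its usual substrate is spliced mRNA in the cytoplasm. Introns are removed in the nucleus, and many of them carry small nucleolar RNAs (snoRNAs) or microRNAs that are cut out of the spliced intron. Box C/D snoRNAs guide methylation of ribosomal RNA, and several lincRNAs, such as SNHG1 and GAS5, are known mainly as hosts of such snoRNAs. 4-thiouridine at a crosslinked position is read as C in place of T, so T-to-C conversions per read serve as the mark of direct contact in this assay.

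The 4 microRNA clusters and the clusters in microRNA host genes are short enough for the mature RNA to be set beside them. RefSeq (GRCh38.p14) gives the sequences below, with the seed, bases 2 to 8, in capitals. Both arms are shown because the clusters, placed on hg19, were not assigned to an arm. Those of miR-122 and miR-203a belong to the 2 names of the microRNA class, those of miR-25, miR-93 and miR-106b lie within MCM7, and those of miR-205 lie within MIR205HG.
hsa-miR-122-5p: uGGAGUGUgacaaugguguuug
hsa-miR-122-3p: aACGCCAUuaucacacuaaaua
hsa-miR-203a-5p: aGUGGUUCuuaacaguucaacaguu
hsa-miR-203a-3p: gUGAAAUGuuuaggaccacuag
hsa-miR-25-5p: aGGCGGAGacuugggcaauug
hsa-miR-25-3p: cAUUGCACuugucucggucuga
hsa-miR-93-5p: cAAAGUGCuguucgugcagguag
hsa-miR-93-3p: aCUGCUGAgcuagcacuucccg
hsa-miR-106b-5p: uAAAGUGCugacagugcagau
hsa-miR-106b-3p: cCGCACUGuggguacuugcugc
hsa-miR-205-5p: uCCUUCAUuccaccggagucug
hsa-miR-205-3p: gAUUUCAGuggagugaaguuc

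Among these, miR-93-5p and miR-106b-5p share the seed AAAGUGC. The microRNA clusters were listed for eIF3a and eIF3d only. The hsa-mir-122 cluster (chromosome 18, 56118320 to 56118341, plus strand) held 13 reads in eIF3a and 15 in eIF3d, and the hsa-mir-203a cluster (chromosome 14, 104583807 to 104583827, plus strand) held 10 and 19. Both lie just above the lowest count of any cluster, 8 reads. The table has no sequence, and the mature RNAs have 22 to 25 bases against widths of 20 and 21 nt for these clusters, taken as end minus start. MCM7, a subunit of the replicative helicase, had an intronic cluster (chromosome 7, 99691195 to 99691215, minus strand) of 20 nt with 80 reads in eIF3a, 79 in eIF3d and 45 in eIF3g, and none listed for eIF3b. Conversions per read there were 0.112, 0.0253 and 0.20. MIR205HG had 24 reads in eIF3a and 81 in eIF3g over 21 nt, with 0.0417 and 0.037 conversions per read. Which microRNA, if any, the clusters of MCM7 and MIR205HG cover was not determined. RefSeq also places microRNA genes inside DALRD3, LARP1, MGAT5, SH3RF3 and SUPT3H, and whether any of these clusters covers one was not determined. The 11 lincRNA names that matched no RefSeq gene, RP6-99M1.2 among them, were not searched for microRNA genes.

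In number, these clusters were a similar part of every list. For eIF3a they were 56 of 375 clusters (14.9%, 95% Wilson interval 11.7 to 18.9), for eIF3b 53 of 298 (17.8%, 13.9 to 22.5), for eIF3d 65 of 403 (16.1%, 12.9 to 20.04) and for eIF3g 73 of 401 (18.2%, 14.7 to 22.3). In reads, eIF3g stood apart. The intronic and noncoding share was 76.8% for eIF3g, against 23.3% for eIF3b, 18.7% for eIF3a and 17.2% for eIF3d. The median cluster had 49 reads for eIF3g (95% order-statistic interval 36 to 76), 30 for eIF3d (21 to 44), 26 for eIF3b (18 to 44) and 21 for eIF3a (16 to 36), and the interval of eIF3g meets each of the others. mRNA clusters had medians of 19 for eIF3g, 22 for eIF3d, 18 for eIF3b and 22 for eIF3a. Intervals here and below cover counting error or the spread between clusters only.

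**Figure D1:**
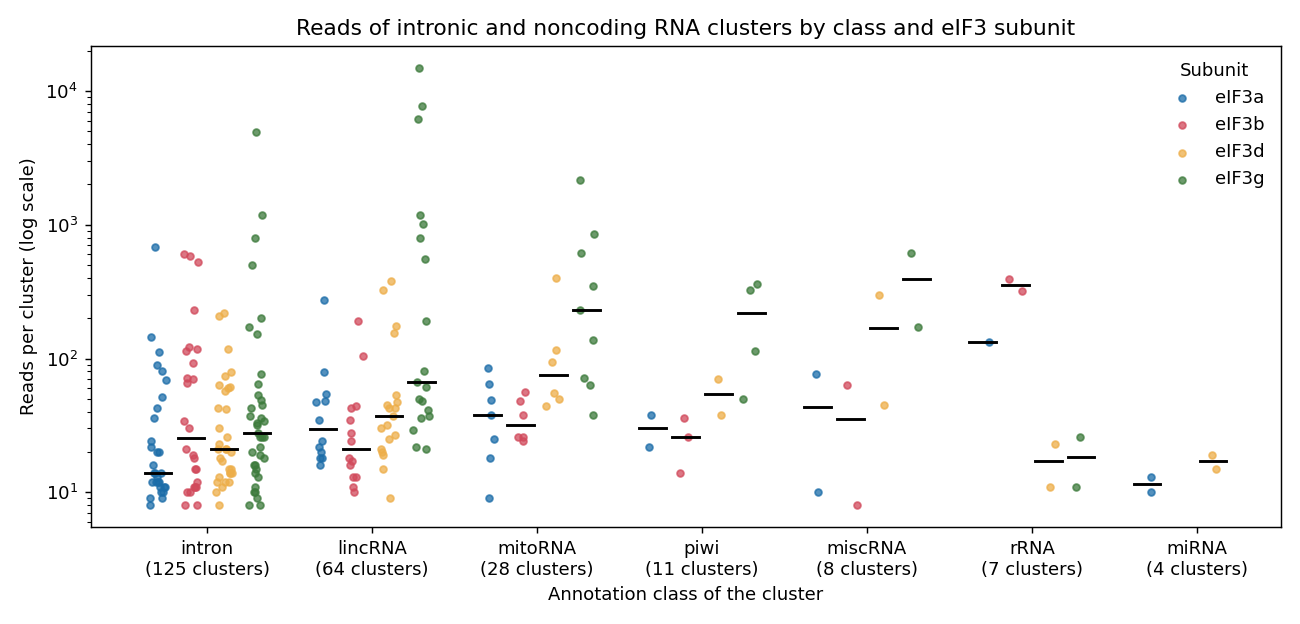
Reads per cluster on a log scale for the 7 annotation classes, with 1 point per cluster, coloured by subunit, and a black bar at the median of each subunit. The highest point of the intron, lincRNA, mitochondrial, piwi and miscellaneous classes is from eIF3g, up to 14879 reads, while that of ribosomal RNA is from eIF3b.

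The reads of eIF3g were concentrated in a few RNAs, of which SNHG1, GAS5 and GNL3 host snoRNAs. The 5 strongest clusters were in SNHG1, RP11-329L6.1, GAS5, GNL3 and MT-RNR2, and held 74.8% of the intronic and noncoding reads of eIF3g, against 47.2% for the 5 strongest in eIF3a, 54.2% in eIF3b and 38.9% in eIF3d. SNHG1, GAS5, GNL3 and RP11-329L6.1 together held 36208 reads in eIF3g, 58.0% of all its reads, 1010 in eIF3d (4.18%) and 29 in eIF3b (0.151%). None of these 4 genes was listed for eIF3a.

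SNHG1, a lincRNA that RefSeq lists with 9 snoRNA genes inside it, had 3 sites on chromosome 11, minus strand. The strongest (62621139 to 62621166) held 14879 reads in eIF3g (exact Poisson interval 14641 to 15120), 377 in eIF3d and 13 in eIF3b. The second (62622768 to 62622838) held 801 reads in eIF3g and 43 in eIF3d, and the third (62620800 to 62620865) 554 and 32. At all 3 sites eIF3g was the highest, at 39.5, 18.6 and 17.3 times the reads of eIF3d.

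GAS5, a growth-arrest transcript with 11 snoRNA genes inside it, had 2 sites on chromosome 1, minus strand. The site at 173835116 to 173835166 held 6165 reads in eIF3g, 324 in eIF3d and 16 in eIF3b. The site at 173833972 to 173833991 was listed for eIF3g alone, with 1173 reads. The lincRNA RP11-329L6.1 (chromosome 17, 62223481 to 62223511, plus strand) held 7707 reads in eIF3g and 25 in eIF3d, the widest ratio of these 2 subunits at 308 among the 52 loci they share. Its name matched no RefSeq gene, so snoRNA genes inside it were not looked up.

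Introns of protein-coding snoRNA hosts followed the same order of subunits. GNL3, a nucleolar GTP-binding protein, held 4929 reads in eIF3g and 209 in eIF3d (chromosome 3, 52726758 to 52726793, plus strand). RBMX, an hnRNP-family splicing regulator, held 1179 and 57 (chromosome X, 135961368 to 135961432, minus strand). RPL17, a protein of the large ribosomal subunit, held 794 and 42, and RPL23A, another such protein, was listed for eIF3g alone with 501 reads. Neither eIF3a nor eIF3b had a cluster in any of these 4 introns.

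Not every snoRNA host followed this order. SNHG15 (chromosome 7, 45022770 to 45022806, minus strand) was listed for all 4 subunits and was highest for eIF3b at 105 reads, with 48 for eIF3a, 41 for eIF3g and 37 for eIF3d. RCC1, the nucleotide exchange factor of the GTPase Ran, held 10, 21 and 19 reads in eIF3a, eIF3d and eIF3g. SRCAP, a chromatin remodeller, held 21 reads for eIF3d, 13 for eIF3a, 11 for eIF3b and 10 for eIF3g. RefSeq places a snoRNA gene in SNX29 too, which held 11 reads in eIF3b and 32 in eIF3g. From a list of 76 names of snoRNA hosts, written with earlier results of these data known, 8 had an intronic or noncoding cluster: GAS5, GNL3, RCC1, RPL17, RPL23A, RPL24, SNHG1 and SNHG15. Of the intronic and noncoding reads, they held 62.4% for eIF3g and 27.7% for eIF3d, against 4.49% for eIF3a and 3.67% for eIF3b. RefSeq shows no snoRNA gene in RPL24, whose cluster held 69 reads for eIF3a, 61 for eIF3d, 30 for eIF3b and 28 for eIF3g.

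**Figure D2:**
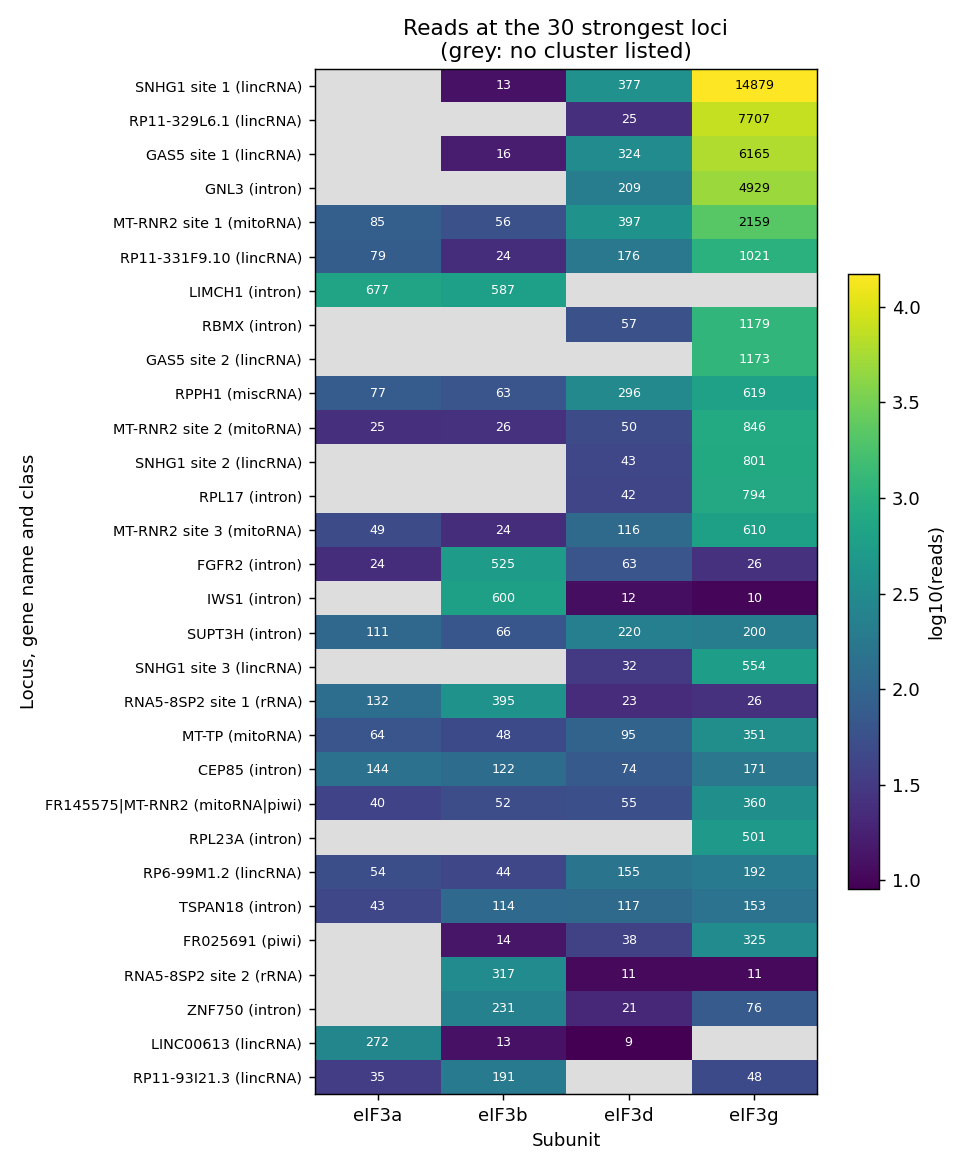
Reads in each subunit (columns) at the 30 intronic and noncoding loci with the most summed reads (rows, with gene name and class), coloured by log10(reads); grey marks a subunit for which no cluster was listed. SNHG1, RP11-329L6.1, GAS5 and GNL3 are bright in eIF3g and grey in eIF3a, while LIMCH1 and LINC00613 are brightest in eIF3a and IWS1 and FGFR2 in eIF3b.

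Intronic genes without a snoRNA gene inside them formed the larger group. The search covered whole genes, so no intron was shown to hold or lack a snoRNA. RefSeq matched all 45 intronic genes, 2 of them through an older symbol, and listed a snoRNA gene inside 7. The snoRNA hosts gave 85.4% of the intronic reads for eIF3g, 25.5% for eIF3d, 1.45% for eIF3a and 0.778% for eIF3b. The other 38 genes had 109 clusters, with a median width of 21 nt and a range of 16 to 37 nt. None of the 45 intronic genes had a cluster in an mRNA exon as well. Among the 403 mRNA names, 9 had clusters of more than 1 exon class, which is a different measure.

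LIMCH1, an actin-associated protein, had the strongest cluster of the intronic genes without a snoRNA gene (chromosome 4, 41602099 to 41602120, plus strand). It held 677 reads in eIF3a (exact Poisson interval 627 to 730) and 587 in eIF3b (540 to 636), and was not listed for eIF3d or eIF3g. IWS1, a transcription elongation factor, held 600 reads in eIF3b, 12 in eIF3d and 10 in eIF3g (chromosome 2, 128229753 to 128229773, minus strand). FGFR2, a fibroblast growth factor receptor, held 525 reads for eIF3b, 63 for eIF3d, 26 for eIF3g and 24 for eIF3a (chromosome 10, 123302700 to 123302721, minus strand). The eIF3b cluster thus held 21.9 times the reads of eIF3a.

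Several other introns were listed for every subunit. SUPT3H, a component of transcriptional coactivator complexes, held 111 reads for eIF3a, 66 for eIF3b, 220 for eIF3d and 200 for eIF3g. In the same order CEP85, a centrosomal protein, held 144, 122, 74 and 171. TSPAN18, a tetraspanin, held 43, 114, 117 and 153, and HIST1H2BJ, a core histone, 11, 18, 18 and 53. The RefSeq gene of HIST1H2BJ spans only 480 nt, and the intron label of its cluster is the authors' annotation, which was not checked. PKNOX2, a homeodomain transcription factor, held 20, 92, 60 and 65. LARP1, a repressor of mRNAs that encode ribosomal proteins, held 14, 8, 43 and 26. ZNF750, a transcription factor of epidermal differentiation, was listed for 3 subunits, with 231 reads in eIF3b, 21 in eIF3d and 76 in eIF3g.

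Mitochondrial RNA gave 35 clusters, of which 28 were annotated as such and 7 carried a piwi name. Their share of all reads was 8.40% for eIF3g, 3.29% for eIF3d, 2.05% for eIF3a and 1.34% for eIF3b. MT-RNR2, the large mitochondrial ribosomal RNA, was covered at several sites of 1 transcript. The site at 3158 to 3230 held 2159 reads for eIF3g, 397 for eIF3d, 85 for eIF3a and 56 for eIF3b. In the same order the site at 3098 to 3123 held 610, 116, 49 and 24, and the widest site, at 2750 to 2920, held 846, 50, 25 and 26. At the widest site the eIF3d cluster (2757 to 2820) overlapped neither that of eIF3a (2881 to 2910) nor that of eIF3b (2862 to 2891). The eIF3g cluster joined them. eIF3g was the highest at each of these 3 sites.

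MT-RNR1, the small mitochondrial ribosomal RNA, held 292 reads in eIF3g at 2 sites and 44 in eIF3d, and was not listed for eIF3a or eIF3b. MT-TP, the mitochondrial proline tRNA, held 351 reads for eIF3g, 95 for eIF3d, 64 for eIF3a and 48 for eIF3b (15955 to 16006, minus strand). MT-TF, the phenylalanine tRNA, held 38 reads in eIF3a and in eIF3b and 71 in eIF3g. Of the 4 piwi names, FR145575, FR025691 and FR023255 lay on the mitochondrial chromosome. FR145575 (2241 to 2306) overlapped a cluster named MT-RNR2, so the name did not separate it from that ribosomal RNA. The piwi names were not looked up in RefSeq, so the mitochondrial genes under FR025691 and FR023255 were not determined. FR090335 on chromosome 2 (58479084 to 58479128, minus strand) held 114 reads for eIF3g, 70 for eIF3d, 38 for eIF3a and 36 for eIF3b.

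The structured RNAs of the nucleus and cytoplasm showed a like order. RPPH1, the RNA of ribonuclease P, held 619 reads for eIF3g, 296 for eIF3d, 77 for eIF3a and 63 for eIF3b (chromosome 14, 20811227 to 20811302, minus strand). In the same order VTRNA1-2, a vault RNA, held 171, 45, 10 and 8 (chromosome 5, 140098537 to 140098593, plus strand). RNU11, an snRNA of the minor spliceosome, held 67, 53, 22 and 18. Its eIF3d cluster was joined to those of eIF3a and eIF3b only through the eIF3g cluster. RNU12, the partner of RNU11, held 61 reads for eIF3g and 21 for eIF3d at sites that do not overlap. Both snRNAs are annotated as lincRNA and counted in that class. The first of the 2 sites of the lincRNA RP11-331F9.10 (chromosome 9, 35657747 to 35657789, minus strand) held 1021 reads for eIF3g, 176 for eIF3d, 79 for eIF3a and 24 for eIF3b. Its second site (35657983 to 35658017) held 43 reads for eIF3d and 35 for eIF3b and was not listed for eIF3g. At the sites of RPPH1, VTRNA1-2 and RNU11 and the first of RP11-331F9.10, each listed for all 4 subunits, eIF3g had the most reads. A list of 27 structured or abundant noncoding RNAs and the mitochondrial tRNAs, also written with earlier results known, was matched by name only. Of these names 6 had a cluster: MT-RNR1, MT-RNR2, MT-TF, MT-TP, RNU12 and RPPH1. They held 25.9% of the intronic and noncoding reads of eIF3d, 12.9% of those of eIF3a, 10.8% of those of eIF3g and 6.28% of those of eIF3b. An RNA of the list that was annotated under another name is missing from these counts. RP11-331F9.10 matched no RefSeq gene, and which RNA lies at its sites was not determined.

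The ribosomal RNA class departed from this order. RNA5-8SP2, a pseudogene of a ribosomal RNA, had 2 sites on chromosome 16, plus strand. The site at 33965557 to 33965579 held 395 reads for eIF3b, 132 for eIF3a, 26 for eIF3g and 23 for eIF3d. That at 33965454 to 33965486 held 317 in eIF3b and 11 each in eIF3d and eIF3g. Reads of a pseudogene and of its near-identical parent genes cannot be told apart from the table. The lincRNA RP6-99M1.2 had 2 sites on chromosome X, minus strand, of which that at 45606439 to 45606462 held 192 reads for eIF3g, 155 for eIF3d, 54 for eIF3a and 44 for eIF3b. The other, at 45605609 to 45605630, held 50, 45, 20 and 43 in the same order. The name RP6-99M1.2 matched no RefSeq gene, so small RNA genes inside it were not looked up. LINC00613 was highest in eIF3a, with 272 reads against 13 in eIF3b and 9 in eIF3d, and RP11-93I21.3 was highest in eIF3b, with 191 reads against 35 in eIF3a and 48 in eIF3g.

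Reads were compared at loci listed for both subunits of a pair, without scaling, since the depth of the libraries is unknown. At least 2-fold more reads in eIF3g than in eIF3a were found at 22 of 46 intronic and noncoding loci, and at 62 of all 284 loci of both subunits (21.8%). For mRNA loci the count was 40 of 238. The median ratio of eIF3g over eIF3a was 3.38 at 21 noncoding loci, 1.67 at 25 intronic loci and 0.852 at 238 mRNA loci. On the log2 scale the noncoding median was 1.75 (95% order-statistic interval 0.69 to 3.17) and the mRNA median -0.23 (-0.35 to 0.01). These intervals treat loci as independent, although several of the noncoding loci are sites of the same RNA, MT-RNR2. They do not measure the spread between libraries. When reads were scaled by the reads in mRNA clusters of each subunit the count was again 22 of 46, against 50 of all 284 loci (17.6%), and when scaled by the reads in all clusters it was 6, against 8 of all 284 loci. The reads of these same RNAs are part of that last total.

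The same held against eIF3d, where 25 of 52 intronic and noncoding loci had at least 2-fold more reads in eIF3g, against 58 of all 293 loci (19.8%). The median ratio of eIF3g over eIF3d was 3.75 at 26 noncoding loci, 1.30 at 26 intronic loci and 0.836 at 241 mRNA loci. Between eIF3b and eIF3a, 9 of 41 intronic and noncoding loci were at least 2-fold higher in eIF3b (all loci 16.6%) and 6 at least 2-fold lower (all loci 23.1%). Of the 72 intronic and noncoding loci listed for 2 or more subunits, 15 had at least 5 times more reads for eIF3g than for every other listed subunit, against 18 of all 439 such loci (4.10%). eIF3b had 3 such loci, in FGFR2, IWS1 and RNA5-8SP2 (all loci 1.14%), eIF3a had 1, LINC00613 (all loci 0.228%), and eIF3d had 0 (all loci 0.00%). The limit of 5 times was not set in advance, and no other was tried for this count.

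**Figure D3:**
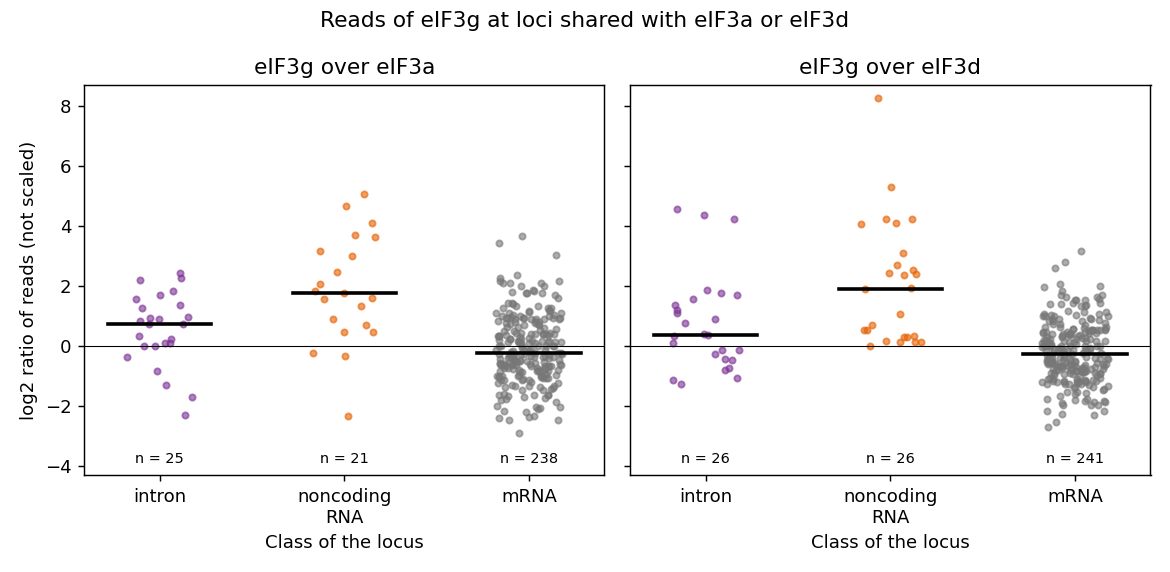
log2 ratio of the reads of eIF3g over those of eIF3a (left) or eIF3d (right), not scaled for depth, with 1 point per locus listed for both subunits, a black bar at the median and the number of loci below. Noncoding loci have medians of 1.75 and 1.91, while mRNA loci have medians of -0.23 and -0.26.

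The share of loci common to the subunits had an interval that overlaps that of mRNA loci. Of the 88 loci, 31 (35.2%, 95% Wilson interval 26.1 to 45.6) were listed for all 4 subunits, against 173 of 558 over the whole table (31.0%) and 142 of 470 mRNA loci (30.2%, 26.2 to 34.5). A further 23 were listed for 3 subunits, 18 for 2 and 16 for 1. A locus listed for all 4 can hold clusters that do not overlap each other, as in RNU11 and at the widest site of MT-RNR2. Introns had 14 of 45 loci in all 4 subunits, lincRNA 8 of 24, mitochondrial RNA 5 of 10, and both miscellaneous RNAs were in all 4. Of the 16 loci of a single subunit, 11 were of eIF3g, 4 of eIF3d, 1 of eIF3b and 0 of eIF3a. Over the whole table there were 119 such loci, 51 of eIF3g, 35 of eIF3d, 16 of eIF3b and 17 of eIF3a. The locus of eIF3b was in ATP8A2, with 11 reads, and those of eIF3d were in SHF, DALRD3, RNU12 and RP3-410C9.1, with 23, 30, 21 and 27 reads. Those of eIF3g ran from 8 reads, in KAZN and DDX19B, to 1173 in GAS5. eIF3g listed 83.0% of the 88 loci, eIF3d 73.9%, eIF3a 62.5% and eIF3b 59.1%, against 71.9%, 72.2%, 67.0% and 53.2% of all 558 loci in the same order.

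**Figure D4:**
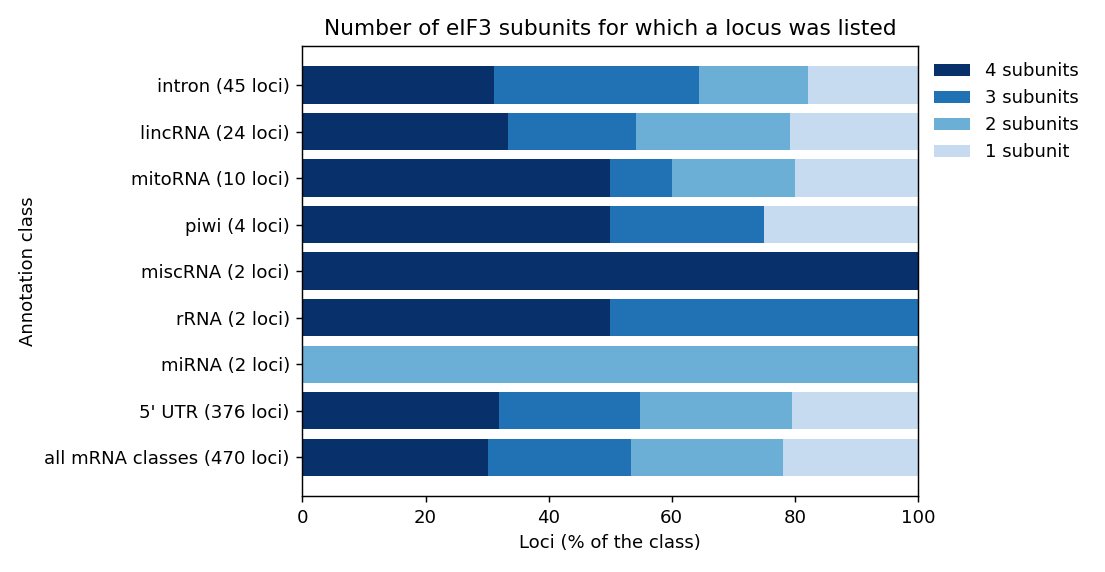
Share of loci in each annotation class (percent, stacked to 100) listed for 4, 3, 2 or 1 of the subunits, with the number of loci in brackets. The intron bar has 31.1% and the lincRNA bar 33.3% of loci in all 4 subunits, against 30.2% for all mRNA classes.

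Widths overlapped between the classes, while their medians differed. Median width, as end minus start, was 22 nt for introns (21 to 23), 23 nt for lincRNA (21 to 25), 29.5 nt for mitochondrial RNA (25 to 38) and 38 nt for piwi names (31 to 44). It was 40 nt for miscellaneous RNA (21 to 73), 21 nt for ribosomal RNA (16 to 30) and 20.5 nt for microRNA, against 24 nt for mRNA clusters (24 to 25). The widest cluster, 170 nt, was in MT-RNR2 in eIF3g, and the narrowest, 13 nt, in RNU12 in eIF3d. The ends of intronic clusters also coincided between subunits. Of 37 intronic loci with more than 1 subunit, 32 (86.5%, 72.0 to 94.1) had all starts within 2 nt and all ends within 2 nt of each other, against 8 of 19 lincRNA loci, 4 of 16 other noncoding loci and 223 of 367 mRNA loci (60.8%, 55.7 to 65.6).

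Conversions per read varied widely among the intronic and noncoding clusters, and the clusters at both ends of the range were counted. Over eIF3a, eIF3b and eIF3g, 48 of 182 intronic and noncoding clusters (26.4%, 95% Wilson interval 20.5 to 33.2) had at least 1.9 conversions per read, against 5.21% of all 1074 clusters and 8 of 892 mRNA clusters (0.897%). No cluster of the table exceeded 2, and 32 of the 48 had exactly 2 conversions for each read. The threshold of 1.9 was chosen with these values known. Of the 48, 38 were intronic, which is 40.9% of the 93 intronic clusters of these subunits, and 10 were noncoding. All 48 were between 14 and 25 nt wide, with a median of 20 nt, against 25 nt for the other 134. Of those 134, 74 were also at most 25 nt wide.

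In FGFR2 the counts were 48 conversions in 24 reads in eIF3a, 1049 in 525 in eIF3b and 52 in 26 in eIF3g. PKNOX2 had 40 in 20, 184 in 92 and 130 in 65, NARS2, the mitochondrial asparaginyl-tRNA synthetase, 24 in 12, 144 in 72 and 40 in 20, and CREBBP, an acetyltransferase, 40 in 20, 38 in 19 and 66 in 33. ZNF750 had 462 in 231 in eIF3b and 152 in 76 in eIF3g, and SUPT3H had 221 in 111, 131 in 66 and 400 in 200. These genes were shown for values near 2 throughout. The 48 clusters lay at 23 loci, and at 14 of these every listed subunit among eIF3a, eIF3b and eIF3g was at 1.9 or above. Among the rest, SNX29 had 2 in eIF3b and 0.875 in eIF3g, SH3RF3 had 2 in eIF3b and 1.36 in eIF3a, and MGAT5 had 1.94 in eIF3g, 1.36 in eIF3a and 1.25 in eIF3b. NARS2, CREBBP, SNX29, SH3RF3 and MGAT5 were picked with these values known. Among noncoding RNAs, the 33965557 site of RNA5-8SP2 had 1.98, 1.97 and 1.46 for eIF3a, eIF3b and eIF3g.

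**Figure D5:**
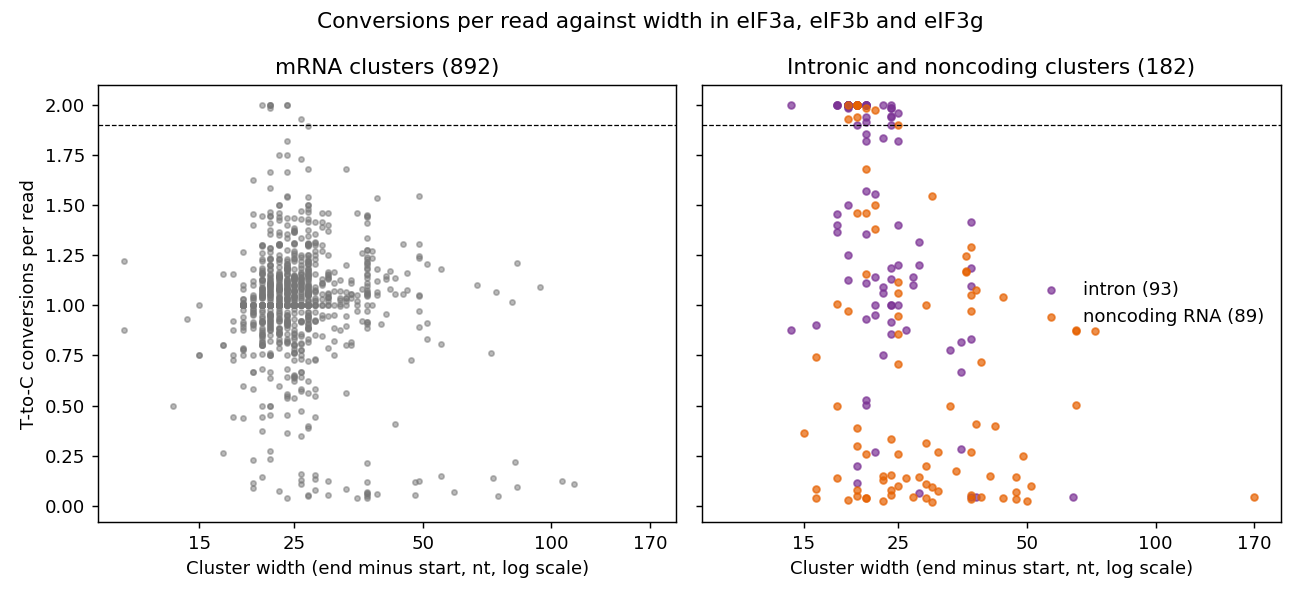
T-to-C conversions per read against cluster width (end minus start, log scale) in eIF3a, eIF3b and eIF3g, for 892 mRNA clusters (left) and 182 intronic or noncoding clusters (right), with 1 point per cluster and a dashed line at 1.9. The mRNA clusters centre near 1, whereas 48 of the 182 others lie at or above the line and 28 lie under 0.1. All 48 are at most 25 nt wide, as are 74 of the other 134.

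At the other end, 28 of the 182 clusters (15.4%) had under 0.1 conversions per read, against 4.38% of all 1074 clusters and 19 of 892 mRNA clusters. The limit of 0.1 was not set in advance, and no other low limit was tried. In eIF3g the 20 such clusters held 41717 reads, 87.1% of its intronic and noncoding reads, and had a median of 706.5 reads, against 34 for the eIF3g clusters between 0.1 and 1.9. They lay in 16 genes, among them SNHG1, GAS5, GNL3, RBMX, RPL17, RPL23A, RP11-329L6.1, RPPH1, VTRNA1-2 and MT-RNR1. At its strongest site SNHG1 had 654 conversions in 14879 reads in eIF3g, 0.044 per read, whereas its site at 62620800 had 280 in 554 reads. RPL17 and RPL23A had 0.0428 and 0.0419. Mitochondrial sites ranged widely in eIF3g: MT-RNR2 had 0.873 at 3158 to 3230, with 1885 conversions, and 0.0449 at 2750 to 2920, and MT-TP had 0.718.

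Between these extremes, LIMCH1 had 0.526 conversions per read in eIF3a and 0.504 in eIF3b, and TSPAN18 had 1.0, 0.93 and 0.954 in eIF3a, eIF3b and eIF3g. SNHG15, with 1.17, 1.17 and 1.24, lay near the mRNA median of about 1 in each subunit. Over the intronic and noncoding clusters the median was 1.13 for eIF3b (0.75 to 1.5), 1.06 for eIF3a (0.917 to 1.19), 0.875 for eIF3g (0.269 to 1.32) and 0.0909 for eIF3d (0.0571 to 0.116). The medians of mRNA clusters were 1.05, 1.02, 1.02 and 0.20 in the same order. The eIF3d medians cannot be set against the others as a rate, for the reason given below. The eIF3g median was 0.316 over clusters of at least 20 reads and 0.276 without those above 1.9, and its summed conversions over summed reads were 0.156. Within eIF3g, introns had a median of 1.5 and noncoding RNAs one of 0.136 (0.0794 to 0.505).

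The conversion entries of eIF3d were of another size. Of its 65 intronic and noncoding clusters, 63 had an entry of 10 or less, whatever the reads, with a median of 2 and a highest entry of 13, against medians of 19.5, 22 and 33 in eIF3a, eIF3b and eIF3g. At loci shared with eIF3a, conversions per read were lower in eIF3d at 45 of 45, at 41 of 43 shared with eIF3b and at 47 of 52 shared with eIF3g. At mRNA loci the counts were 253 of 254, 185 of 187 and 239 of 241. The intronic and noncoding exceptions against eIF3b were in MT-RNR2 and RP6-99M1.2, and those against eIF3g in RPL17, HIST1H2BJ, MT-RNR1, MT-RNR2 and FR025691. Over all 65 clusters, 22 had an entry of 2 and 12 an entry of 1. Of the 23 loci with at least 1.9 conversions per read in another subunit, 16 were listed for eIF3d. An entry of exactly 2 was found at 12 of these 16, against 0 of 3 such mRNA loci. Where every other listed subunit was at 1.9 or above, the entry was 2 at 9 of 9 loci, over eIF3d reads from 8 in CCDC160 to 220 in SUPT3H, and at 0 of 2 mRNA loci. No source used here gives what the eIF3d entries count, so its conversions per read cannot be set against those of the other subunits as a rate.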

How the data were processed

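RNA crosslinked to eIF3 was sequenced from 293T cells in 12 libraries, 3 replicates for each of eIF3a, eIF3b, eIF3d and eIF3g, per the labels. The authors deposited 1 table of clusters with raw counts of reads, and a whole-number entry of T-to-C conversions, per cluster and subunit, without normalization, per the file headers. Replicates are already combined in it, and nothing says whether they were separate cultures. The submitters' processing notes name cutadapt, Bowtie, bedtools and the build hg19; the cluster caller, its thresholds and the coordinate convention are stated in no source used here. Whether reads mapping to several places were kept is not stated, which bears on pseudogenes and snoRNA copies.

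Clusters were grouped by the authors' annotation. Overlapping same-strand clusters were joined to loci, directly or through another cluster, with 1 locus mixing mitochondrial and piwi names, counted in both classes. Shares carry Wilson intervals and medians order-statistic intervals at 95%. Reads are not independent molecules, and clusters are not replicates, so no test was made. Joining and the interval of the median were tested on simulated data. The simulation held no locus joined only through another cluster, and the Wilson and Poisson intervals were not tested. Python 3.11.15, pandas 2.3.3 and scipy 1.17.1 were used. Depth per library is unknown.

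RefSeq (GRCh38.p14) gave gene names, genes lying inside hosts regardless of strand, and microRNA sequences. Of 18 lincRNA names 7 matched. Transcript suffixes of names were dropped.

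Genes named are the 10 with most summed reads among introns and lincRNA, 5 in each smaller class, the 5 strongest clusters per subunit, the 10 strongest genes of all 4 subunits and members of the lists; others are named for low or high conversions, for microRNA or snoRNA genes inside them, or as exceptions, after their values were seen. The members and lists were chosen with earlier results of these data known. A test per library was not possible on pooled values. Alternatives were read minimums, genes in place of clusters, overlap, scaling and fold.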

Additional observations from a re-analysis of the deposited data

How the results depend on the processing

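Of 56 alternatives to 20 values, 34 stayed within the interval of the main value, or within 1.5 times a count. The share of clusters moved only in eIF3g, to 27.7% among clusters at or above the median reads. The share of reads in eIF3a, eIF3b, eIF3d and eIF3g became 14.9%, 20.8%, 15.8% and 69.5% without the strongest cluster of each. It was 32.6% in eIF3b and 23.0% in eIF3d without EIF3A, and 19.4%, 24.3% and 79.6% in eIF3a, eIF3b and eIF3g for clusters at or above the median reads. Median reads of clusters with at least 20 reads were 48 in eIF3a, 59.5 in eIF3b and 45 in eIF3d, which follows from the limit itself. Median conversions per read became 0.91 in eIF3a without clusters above 1.9, 0.0476 in eIF3d with at least 20 reads and, as summed conversions over summed reads, 0.0565 in eIF3d and 0.156 in eIF3g. The share of loci of all 4 subunits was 22.2% for clusters at or above the median reads, and the median width was 25 nt for spans of loci. The count of loci at least 2-fold higher in eIF3g than in eIF3a was 6 when scaled by all reads in clusters and 12 at 4-fold, against 24 of all 284 loci. Exactly 2 conversions per read, added after seeing the data, held for 17.6% of clusters. Beyond the alternatives' own construction, the cause was not tested. No paired analysis was possible because the table has no replicate column, and no replicate could be left out. Depth limits all counts near 8 reads, where a cluster missing from 1 subunit may lie below the calling limit.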
